A study of Mus musculus with 2 samples.

Results

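The genes described here are the Slc25a solute carriers, taken as every gene whose symbol in both transcript tables is Slc25a followed by a number. There were 38 of them among 14614 known genes with reads in both libraries. GENCODE M21 lists 47 such genes in the mouse. Slc25a24 had 1 read in replicate 1 and 0 in replicate 2, and 8 more (Slc25a2, Slc25a21, Slc25a31, Slc25a34, Slc25a41, Slc25a43, Slc25a48 and Slc25a54) had 0 reads in both, which allows up to 3.65 CPM (reads per 1000000 mouse reads) in replicate 1 and 4.03 CPM in replicate 2.

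The study holds 1 group: hippocampus (labelled as a layer of hippocampus) of male B6CASTF1/J mice aged 14 days, first-generation hybrids of C57BL/6J and CAST/EiJ, with no treatment named. It was read in 2 long-read cDNA libraries called biological replicates 1 and 2, each labelled as 3 males and made from 2 µg of total RNA. The labels give both libraries the same donor entry, so the spread between them may be technical. No conditions were compared: each test below compares these 2 libraries. Replicate 1 had 821324 mouse reads and replicate 2 had 743862, of which 4812 and 4401 fell on the carriers.

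Slc25 proteins form the largest family of transporters in the mitochondrial inner membrane. Each is built from repeats of a pair of membrane-crossing helices, and swaps or imports nucleotides, phosphate, amino acids, carboxylates, cofactors or metals between cytosol and matrix. In brain they supply ATP synthesis with ADP and phosphate, and carry glutamate and aspartate across the membrane that separates their cytosolic and matrix enzymes. Not every member sits there: Slc25a17 is a peroxisomal carrier and Slc25a46 lies in the mitochondrial outer membrane.

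Members differed in which exons their reads held, and the following sequences show the choices. They come from the GENCODE M21 transcripts (mm10), written 5′ to 3′ in the sense of the mRNA. Slc25a3, the phosphate carrier, has a pair of adjacent exons that are used in place of each other. They are 125 and 122 bases long, both on the minus strand, at chr10:91122207-91122331 (upstream) and chr10:91121922-91122043 (downstream), and lie wholly in the coding sequence. Capitals mark the 80 bases that were identical in a global alignment of the pair, which is 66.1% of 121 aligned bases.
Slc25a3 upstream exon: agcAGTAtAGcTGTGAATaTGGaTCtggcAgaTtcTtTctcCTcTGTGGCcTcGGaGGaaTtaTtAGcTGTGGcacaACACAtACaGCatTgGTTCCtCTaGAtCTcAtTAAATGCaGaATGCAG
Slc25a3 downstream exon: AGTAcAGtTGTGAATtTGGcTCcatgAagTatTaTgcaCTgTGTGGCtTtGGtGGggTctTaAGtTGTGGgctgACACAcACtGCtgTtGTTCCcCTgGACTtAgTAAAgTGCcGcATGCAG

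Slc25a25, a calcium-regulated ATP-Mg and phosphate carrier, has a coding exon of 36 bases at chr2:32420656-32420691 on the minus strand, and Slc25a14, a relative of the uncoupling proteins, has 2 donor sites 9 bases apart at the end of its second exon, at chrX:48624198-48624206 on the plus strand. Both stretches are multiples of 3. They are shown in capitals between the 30 coding bases on each side in the spliced mRNA.
Slc25a25 with the exon: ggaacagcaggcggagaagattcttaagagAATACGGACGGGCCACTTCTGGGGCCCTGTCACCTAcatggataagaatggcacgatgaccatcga
Slc25a14 with the longer second exon: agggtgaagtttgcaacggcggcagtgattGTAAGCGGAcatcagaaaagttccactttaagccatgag

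The last 2 sequences each run into a stop codon, shown in capitals. One is the start of an extra Slc25a14 exon, chrX:48625596-48625628 on the plus strand. The other is the end of a coding exon of Slc25a28, an iron carrier, with the start of its retained intron, chr19:43666805-43666944 on the minus strand, in which the first 30 bases are exon.
Slc25a14 extra exon to its stop codon: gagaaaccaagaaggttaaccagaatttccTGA
Slc25a28 exon end and retained intron to the first in-frame stop: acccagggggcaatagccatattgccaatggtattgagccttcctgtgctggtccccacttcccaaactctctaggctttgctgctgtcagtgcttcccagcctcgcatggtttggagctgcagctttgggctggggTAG

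The carriers summed to 5859 CPM in replicate 1 and 5916 CPM in replicate 2 (5888 ± 40.7, SD, n = 2). Within these close sums the make-up differed. Spliced models held 85.6% of carrier reads in replicate 1 and 78.6% in replicate 2, and unannotated single-exon models 13.6% and 20.8%. A long read stands for 1 cDNA molecule, so CPM was not divided by length unless stated. The 3 highest genes, Slc25a4, Slc25a5 and Slc25a3, held 65.8% of carrier reads in replicate 1 and 69.3% in replicate 2 (95% Wilson intervals 64.4 to 67.1 and 68.0 to 70.7). The other members spread down to single reads. The median of mean CPM was 47.9 over the 38 carriers and 19.8 over all known genes with reads in both libraries.

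**Figure D1:**
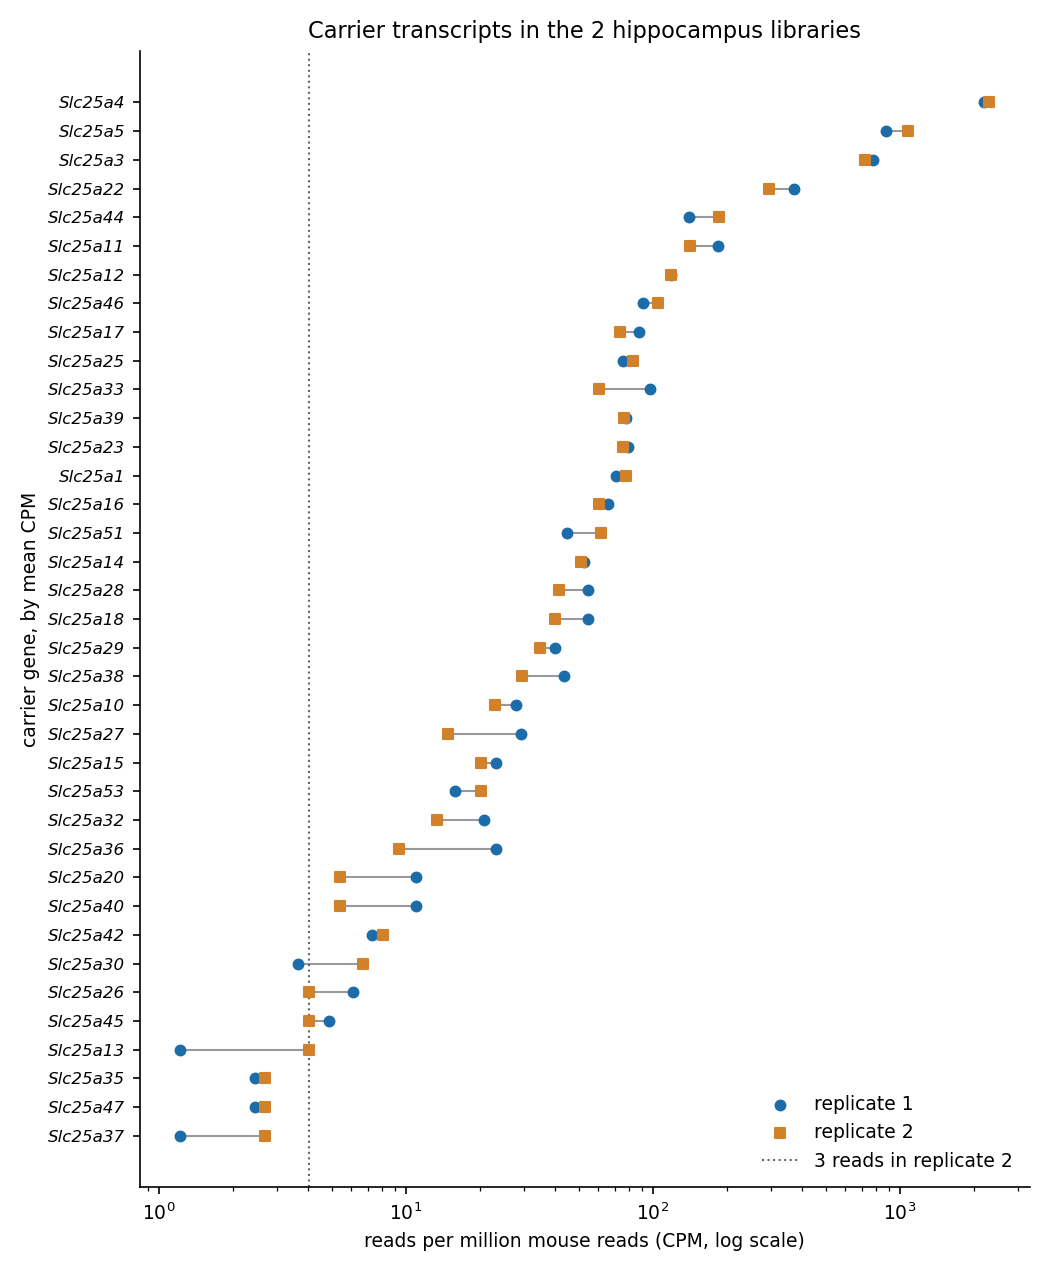
Level of the carriers reported here in CPM (log axis) in replicate 1 (circles) and replicate 2 (squares), ordered by mean CPM, with a line joining the libraries and a dotted line at 3 reads of replicate 2 (4.03 CPM). Slc25a4 lies at 2198 and 2302 CPM, and the last 4 genes lie at or below the dotted line in both.

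The adenine nucleotide and phosphate carriers came first. Slc25a4 (mm10 chromosome 8, 46206797 to 46211284) encodes the ADP/ATP exchanger best known from heart, muscle and brain. Its 1805 reads of replicate 1 make 2198 CPM and its 1712 reads of replicate 2 make 2302 CPM, and it ranked 14 among all genes. Slc25a5 (chromosome X, 36795651 to 36798807), the ADP/ATP exchanger known from dividing cells, had 720 and 802 reads, or 877 and 1078 CPM, rank 82. Slc25a3 (chromosome 10, 91116574 to 91124059), which brings in the phosphate for ATP synthesis, had 639 and 538 reads, or 778 and 723 CPM, rank 121. The order Slc25a4, Slc25a5, Slc25a3 was the same in both libraries on all reads. Slc25a4 stood far above the others. The gap between Slc25a5 and Slc25a3 in replicate 1 was smaller than the difference of Slc25a5 between the libraries, so those 2 do not separate beyond the spread. Counted on spliced reads only, Slc25a3 (749 and 692 CPM) stood above Slc25a5 (494 and 441 CPM).

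The calcium-regulated ATP-Mg and phosphate carriers Slc25a25 and Slc25a23 load the matrix with adenine nucleotides. Slc25a25 had 62 reads in each library (75.5 and 83.3 CPM). Slc25a23 had 65 and 56 reads (79.1 and 75.3 CPM). The 2 did not separate beyond the spread between libraries. Of the same kind, Slc25a24 had the single read given above and Slc25a41 none, and Slc25a31, the ADP/ATP exchanger of testis, was at 0 too.

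Among carriers of carboxylates, glutamate and aspartate, Slc25a22 led. It is a mitochondrial glutamate carrier in which inherited loss causes epilepsy in infancy, and had 305 and 220 reads (371 CPM in replicate 1, 296 CPM in replicate 2). Slc25a11, which exchanges oxoglutarate for malate in the malate-aspartate shuttle, had 151 and 105 reads (184 and 141 CPM). Slc25a12, the aspartate-glutamate exchanger of the same shuttle in brain, had 97 and 88 reads and 118 CPM in both libraries. Slc25a1, the citrate carrier, had 58 reads in each (70.6 and 78.0 CPM). Slc25a18, the other glutamate carrier, known from astrocytes, had 45 and 30 reads (54.8 and 40.3 CPM). Slc25a10, the dicarboxylate carrier, had 23 and 17 reads, and Slc25a13, the aspartate-glutamate exchanger best known from liver, had 1 and 3. Slc25a22, Slc25a11 and Slc25a12 kept that order in both libraries, whereas on all reads Slc25a11 and Slc25a44 traded places. On spliced reads only, Slc25a11 (180.2 and 137 CPM) stood above Slc25a44 (86.4 and 79.3 CPM) in both libraries.

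Carriers of other amino acids and of acylcarnitine were led by Slc25a44, which transports branched-chain amino acids, with 115 and 138 reads (140.0 and 186 CPM). Slc25a29, for basic amino acids, had 33 and 26 reads (40.2 and 35.0 CPM). Slc25a38, the glycine carrier needed for haem synthesis, had 36 and 22 (43.8 and 29.6 CPM). Slc25a15, the ornithine carrier, had 19 and 15, and Slc25a20, the carnitine-acylcarnitine carrier, 9 and 4.

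Cofactor, nucleotide, glutathione and iron carriers were many and of middling level. The 13 listed under this heading summed to 564 CPM in replicate 1 and 472 CPM in replicate 2. Slc25a17, of peroxisomes, had 72 and 55 reads (87.7 and 73.9 CPM). Slc25a33, a pyrimidine nucleotide carrier, had 80 and 45 (97.4 and 60.5 CPM), and its relative Slc25a36 had 19 and 7 (23.1 and 9.41 CPM). Slc25a39, needed for glutathione import, had 64 and 57 reads (77.9 and 76.6 CPM), and its relative Slc25a40 had 9 and 4 (11.0 and 5.38 CPM). These values put 1 member of each related couple well above the other in both libraries.

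Slc25a16, linked to coenzyme A, had 54 and 45 reads (65.7 and 60.5 CPM), and Slc25a42, a coenzyme A carrier, 6 in each (7.31 and 8.07 CPM). Slc25a51, which imports NAD, had 37 and 46 (45.0 and 61.8 CPM). Of the iron carriers, Slc25a28 had 45 and 31 reads (54.8 and 41.7 CPM), and Slc25a37, the one needed in developing red cells, 1 and 2. Slc25a32, linked to folate and FAD, had 17 and 10, and Slc25a26, which imports S-adenosylmethionine, 5 and 3.

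Of the relatives of the uncoupling proteins, Slc25a14 had 43 and 38 reads (52.4 and 51.1 CPM), Slc25a27 had 24 and 11 (29.2 and 14.8 CPM) and Slc25a30 had 3 and 5. Slc25a46, a protein of the outer membrane that takes part in mitochondrial fission, had 75 and 78 reads (91.3 and 105 CPM). Slc25a53 had 13 and 15, Slc25a45 had 4 and 3, and Slc25a35 and Slc25a47 had 2 in each. Of the 38 carriers, 10 had under 20 reads over both libraries, and 4 had 3 or fewer in each. Counts of Slc25a11 and Slc25a35, Slc25a36 and Slc25a26 are less certain, because genes on the other strand overlap them.

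The carriers were mostly alike in the length of the coding sequence, and no share over all genes was set beside it. For 36 of them an annotated coding transcript was read, and in 31 its coding sequence was 850 to 1100 bases long (median 954, range 822 to 2031). The longest belonged to Slc25a12, whose leading transcript has 18 exons. The number of exons ran from 2 to 18.

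Members that are relatives or have like reported substrates were set against each other in 9 pairs. In 6 of the 9 the first gene of the pair held over 50% of the reads on the mean of both libraries. Which gene came first was only the order of listing. Slc25a12 held 99.0% of its pair with Slc25a13 in replicate 1 and 96.7% in replicate 2 (intervals 94.4 to 99.8 and 90.8 to 98.9), and their coding sequences are 72.3% identical and 15 of 16 internal exons have the same length. Slc25a22 held 87.1% and 88.0% of its pair with Slc25a18. Slc25a28 held nearly all of the iron pair, with Slc25a37 at 2.17% and 6.06%.

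Slc25a4 held 71.5% of the reads of the ADP/ATP exchanger pair in replicate 1 (69.7 to 73.2) and 68.1% in replicate 2 (66.3 to 69.9), or 69.8% ± 2.39 (SD, n = 2). The intervals of the libraries just overlapped. On spliced reads alone the mean share was 80.7%, and with CPM divided by mean model length it was 59.9%. The coding sequences of Slc25a4 and Slc25a5 are 78.6% identical, and both have internal exons of 487 and 141 bases. GENCODE M21 lists 11 pseudogene copies of Slc25a5 at least 80% identical over at least 50% of its coding sequence, the nearest at 98.3%. They had 0 reads in both libraries. Reads of such copies and of Slc25a5 may be hard to assign, so its counts are less certain than those of Slc25a4. Such copies, also with 0 reads, are listed for Slc25a36 (1, 99.6% identical), Slc25a40 (1, 96.3%) and Slc25a51 (1, 93.3%). Slc25a3 has 2 (the nearest at 90.1%) and Slc25a37 has 1 (84.4%). The same limit holds for the counts of these carriers.

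Slc25a23 and Slc25a25 were the evenly matched pair: Slc25a23 held 51.2% in replicate 1 (42.6 to 59.7) and 47.5% in replicate 2 (38.7 to 56.4), on opposite sides of 50% with intervals that overlap widely. Their 8 internal exons in the leading transcripts have the same lengths in the same order. On annotated transcripts alone the share of Slc25a23 was 26.7%, and on spliced reads 36%. Single-exon reads, which name no isoform, were 26 of the 65 reads of Slc25a23 and 29 of 56, against 4 of 62 in each library for Slc25a25. The largest single-exon model of Slc25a23 in replicate 2 spans only 1 base, so the extent of its reads is not known. Slc25a14 held 64.2% and 77.6% of its pair with Slc25a27. Slc25a39 held 87.7% and 93.4% beside Slc25a40, Slc25a16 had 54 and 45 reads beside 6 and 6 of Slc25a42, and Slc25a36 held 19.2% and 13.5% beside Slc25a33. The mean of that last share, 16.3%, was 10.2% on annotated transcripts alone and 7.41% per kilobase.

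**Figure D2:**
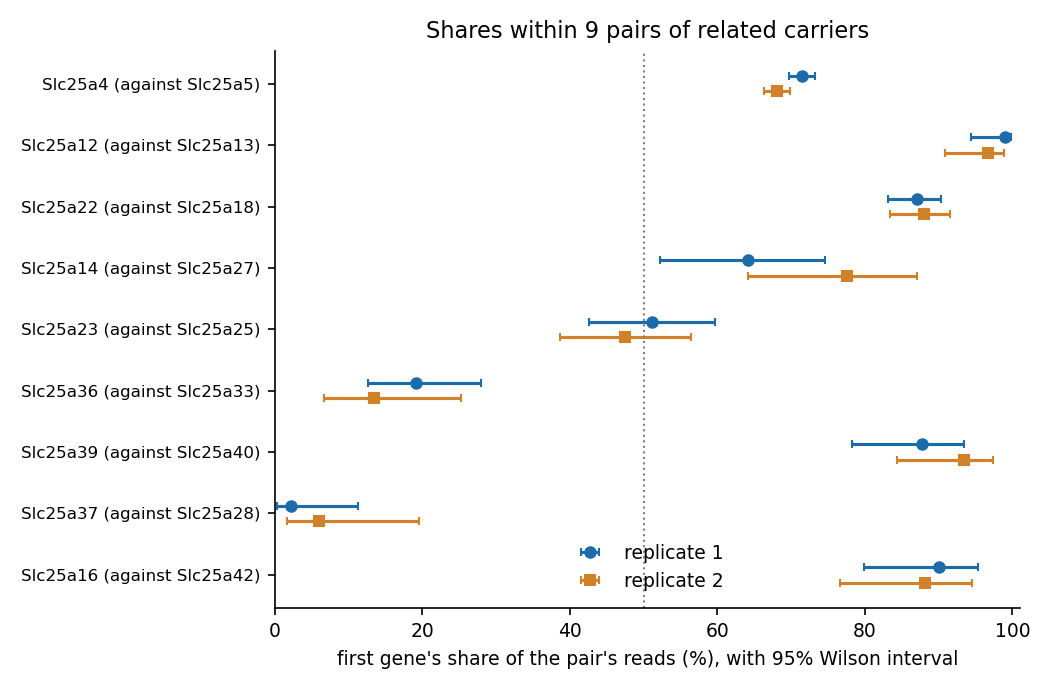
Share of each pair's reads held by the first gene (percent), in replicate 1 (circles) and replicate 2 (squares), with 95% Wilson intervals and a dotted line at 50%. Slc25a12 and Slc25a37 lie near the ends of the axis, and Slc25a23 lies on the line.

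The downstream exon of the Slc25a3 pair was nearly the only one read. It was in 563 of the 564 reads of replicate 1 that held either exon, 99.8% (99.0 and above), and in all 483 of replicate 2 (99.2% and above), while the upstream exon was in 2 and 1. The form with the upstream exon is the one known from heart and striated muscle. In each library 1 of the reads with the upstream exon held the downstream exon too. Muscle genes were near 0 in these libraries (Ckm 0 and 1 read, Acta1 4 and 7, Myh6 1 and 0). The intron before the downstream exon, which contains the upstream exon, was retained in 29 of 591 reads (4.91%) and 17 of 499 (3.41%). More reads of the deposited models thus ran through the upstream exon inside a retained intron than held it as a spliced exon.

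Slc25a25 had its 36-base exon in 25 of 51 reads in replicate 1 (49.0%, 35.9 to 62.3) and 27 of 54 in replicate 2 (37.1 to 62.9), close to even in both. The gene was read from a distal first exon in 33 and 36 reads and from a proximal one in 16 and 20, each with its own start codon. Among reads with the distal first exon the 36-base one was in 14 of 31 and 17 of 35, and with the proximal one in 9 of 16 and 10 of 19. Each first exon was therefore found with and without it. The annotated coding transcripts that hold these combinations are 1542, 1506, 1503 and 1467 coding bases long. The most read of them, Slc25a25-205, held 31.5% and 32.1% of isoform reads, the lowest mean leading share among the 20 carriers compared.

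Slc25a14 used the longer second exon in 20 of 39 reads (51.3%) and 18 of 33 (54.5%), and the shorter one in 19 and 15. A second choice in this gene was a pair of extra exons of 45 and 48 bases, found together in 7 of 41 reads in replicate 1 (17.1%, 8.53 to 31.3) and 6 of 33 in replicate 2 (18.2%, 8.61 to 34.4), and skipped together in 33 and 27. The 48-base exon came alone in 1 read and the 45-base exon in 0. The annotated transcript with both, Slc25a14-205, is classed as a target of nonsense-mediated decay. Its coding sequence ends at the stop codon shown above after 105 bases, against 966 and 975 in the 2 main coding transcripts.

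Slc25a28 kept 1 intron in many of its reads. This intron of 1086 bases (chromosome 19, 43665829 to 43666914) was retained in 18 of 37 reads in replicate 1 (48.6%, 33.4 to 64.1) and 11 of 25 in replicate 2 (26.7 to 62.9). The reading frame from the annotated start codon meets its first stop after 107 intron bases. A spliced transcript outside the annotation with this intron retained and 3 exons had 16 and 11 reads, against 19 and 14 for the leading annotated transcript.

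Over all genes, 1.91% of introns with at least 20 informative reads in each library were retained in 10% or more of reads. Among the carriers 9 of 152 such introns in 22 genes passed. The other 8 all lie in Slc25a22, where 37 and 28 reads were assigned to 1 unspliced annotated transcript, Slc25a22-221, that spans them. Without those reads the highest retention in Slc25a22 was 5.73% in replicate 1 and 5% in replicate 2.

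Slc25a22 was read from 3 first exons that join the same second exon, which holds the start codon, so the coding sequence is the same. The distal one was in 89 of 197 reads in replicate 1 (45.2%, 38.4 to 52.2) and 77 of 132 in replicate 2 (58.3%, 49.8 to 66.4). The middle one was in 54 and 32, and the proximal one in 54 and 23. The intervals of each overlap between the libraries, but overlap is not a test, and first exon use was not tested. The middle first exon followed by the complete set of downstream exons is a new combination in these tables, with 52 and 31 reads. The same splice junction is annotated in 3 transcripts, of which Slc25a22-209 is a coding one.

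In Slc25a44, 3 donor sites at the end of the first exon were read: the proximal one in 44 of 62 reads and 38 of 51 (71.0% and 74.5%), the distal one in 12 and 10, and the middle one in 6 and 3. The annotated transcript with the proximal donor has 57 more coding bases than the others. In Slc25a51 the middle of 3 exons was skipped in 2 of 35 reads (5.71%) and 7 of 43 (16.3%), with overlapping intervals. Its coding sequence is 945 bases with that exon and 894 without it.

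**Figure D3:**
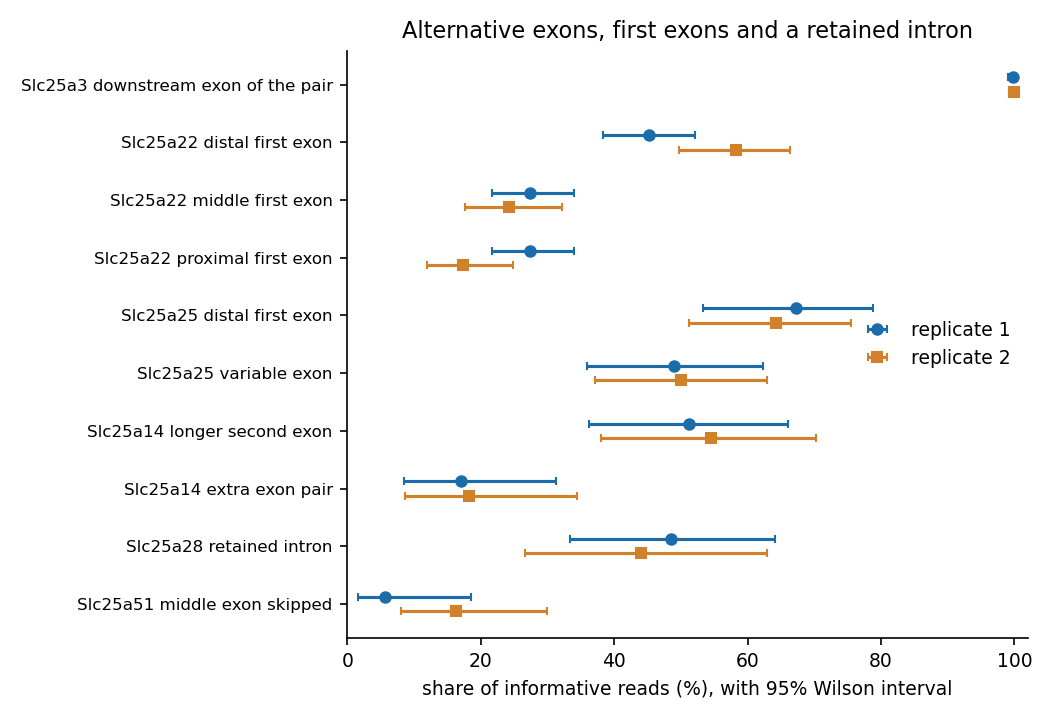
Share of informative reads (percent) with the named exon, first exon, donor or retained intron, in replicate 1 (circles) and replicate 2 (squares), with 95% Wilson intervals. The intervals overlap between the libraries in every row, which is not a test of a difference. Slc25a3 stands at the right end while the 36-base exon of Slc25a25 lies near 50%.

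An internal exon was called variable where its mean inclusion was 5 to 95% and each library had at least 20 informative reads. Of 155 internal exons of carriers with that depth, 10 in 7 genes were variable, and over all genes 5.09% were. Besides those of Slc25a25, Slc25a14 and Slc25a51, they include exons of Slc25a16 (64 bases, in 94.2% and 90.2% of reads), Slc25a44 (128 bases, 96.7% and 92.0%) and Slc25a38. The last has 2 exons that share an acceptor, of 73 bases (6.90% and 4.55%) and 123 bases (12.9% and 0%). By Fisher's exact test with Benjamini-Hochberg adjustment over all variable exons, 0 carrier exons differed between the libraries, 0 had an unadjusted p under 0.05, and 0.0440% of all variable exons were called.

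The leading isoform held a median of 88.2% of a carrier's isoform reads in the 20 genes with enough of them, and 83.3% over all 4684 genes. Its share was under 80% in 7 of the 20 carriers, against 44.7% of all genes. These included Slc25a25, Slc25a22, Slc25a14, Slc25a28, Slc25a44 and Slc25a51 (85.7% and 72.1%). Slc25a4 and Slc25a5 stood at the other end, with 99.7% and 99.6%, and 98.5% and 99.4%. By the same test 0 of the 20 differed between the libraries, 1 (Slc25a3, 85.7% and 90.4%) had an unadjusted p under 0.05, and 0.171% of all genes were called. Counting incomplete reads as isoforms gave 3 calls among 22 carriers, against 2.14% of all 5292 genes. They were in Slc25a4, Slc25a5 and Slc25a44, whose class labels differ between the tables.

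Carrier levels were then compared between the libraries, over all 8875 genes with at least 20 reads. Of 28 carriers tested, 1 was called, where 1.58% of all genes were. It was called higher in replicate 2, as 0.744% of all genes were, and 0 carriers were called lower, where 0.834% of all genes were. This was Slc25a5, at 877 and 1078 CPM, with a log2 ratio of 0.30 (Fisher's exact test with Benjamini-Hochberg adjustment, adjusted p = 0.00728). The median log2 ratio was -0.15 over the 28 carriers and 0.01 over all genes tested, and CPM was lower in replicate 2 in 19 of the 28, against 48.8% of all genes. Unadjusted p was under 0.05 in 6 of the 28, against 10.3% of all genes. Those not called after adjustment were Slc25a22 (log2 ratio -0.33), Slc25a11 (-0.38), Slc25a33 (-0.68), Slc25a36 (-1.24) and Slc25a44 (0.40). Of the 28 carriers tested, Slc25a36 was the 1 at least 2-fold apart, on 19 and 7 reads, where 4.61% of all genes tested were.

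**Figure D4:**
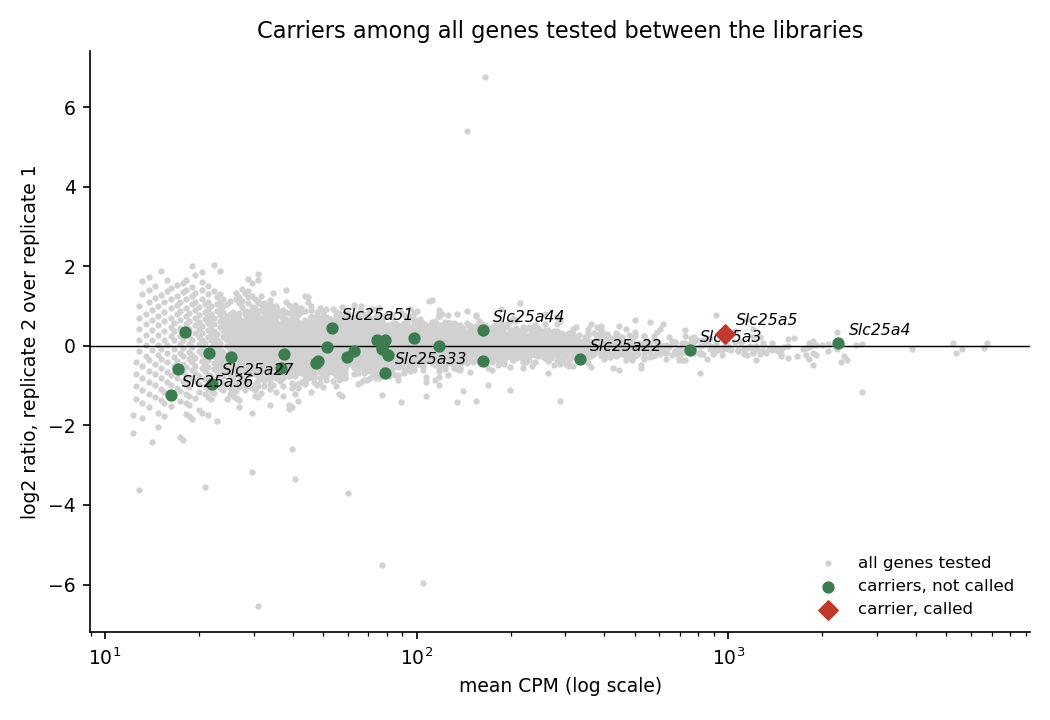
Log2 ratio of replicate 2 over replicate 1 against mean CPM (log axis) for all 8875 genes tested (grey), the 27 carriers not called (green circles) and Slc25a5 (red diamond). Slc25a5 lies at 0.30, and the carriers farthest below 0 have few reads.

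The call of Slc25a5 rested on reads of single-exon models that end with the gene, 255 bases long in replicate 1 and 421 in replicate 2. Single-exon reads made up 314 of its 720 reads in replicate 1 (43.6%) and 474 of 802 in replicate 2 (59.1%, with intervals that did not overlap). Its spliced reads were 406 and 328, or 494 and 441 CPM, with a log2 ratio of -0.16 that was not called (Fisher's exact test, adjusted p = 0.701). On spliced reads 0 of 28 carriers were called, where 1.01% of all genes were. On annotated transcripts alone the log2 ratio was -0.15 (adjusted p = 0.748). With DESeq2 size factors in place of mouse reads the call was lost at a log2 ratio of 0.24 (adjusted p = 0.0585, Fisher's exact test).

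Slc25a4 and Slc25a44 had the same shape. Slc25a4 had single-exon reads at 245 and 356 CPM, while its spliced reads stood at 1953 and 1945 CPM. Slc25a44 had 44 and 79 (53.6 and 106 CPM), with spliced reads at 86.4 and 79.3 CPM, and its single-exon model in replicate 1 spans only 2 bases, so the extent of those reads is not known. Slc25a23 had 26 and 29 and Slc25a3 had 24 and 23. By single-exon reads alone 3 of the 5 carriers with enough of them were called, Slc25a4, Slc25a5 and Slc25a44, all higher in replicate 2, where 8.18% of all genes were called in either direction. A Fisher's exact test of each gene's single-exon share called 2 of 22 carriers, Slc25a5 (adjusted p = 1.14e-06) and Slc25a4 (adjusted p = 0.0252), both with the higher share in replicate 2, where 0.660% of all genes were called and 0.558% in that direction. Both tests were chosen after these values were seen. The share of Slc25a44 was 38.3% in replicate 1 and 57.2% in replicate 2 and did not pass (Fisher's exact test, adjusted p = 0.276).

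**Figure D5:**
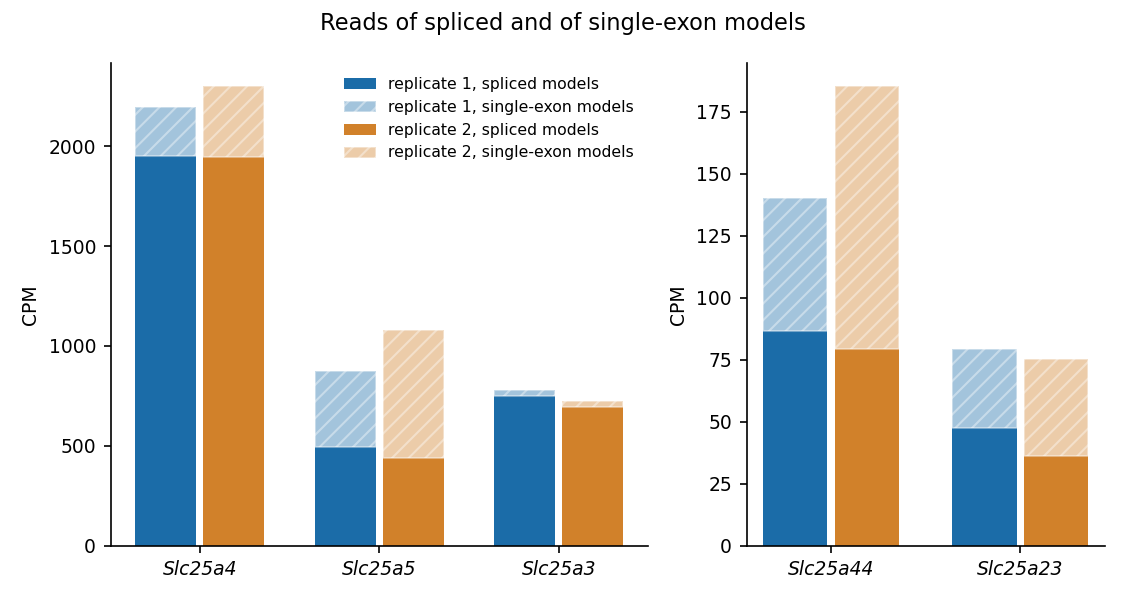
CPM of 5 carriers in each library, split into reads of spliced models (solid) and of single-exon models (hatched), with separate scales for the left and right panels. The solid parts of Slc25a4 are of like height (1953 and 1945 CPM), while the hatched parts of Slc25a4, Slc25a5 and Slc25a44 are taller in replicate 2.

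The class given to those reads differed between the tables. All single-exon reads of Slc25a4, Slc25a5 and Slc25a44 were classed genomic in replicate 1 and incomplete splice match in replicate 2. Incomplete matches were 150 of 4812 carrier reads in replicate 1 and 923 of 4401 in replicate 2, genomic reads 637 and 90, and both kinds of single-exon read together 13.6% and 20.8%. Over all known genes the latter made up 8.26% and 9.95%. Annotated transcripts held 77.7% (76.5 to 78.8) and 72.5% (71.1 to 73.8) of carrier reads, and new combinations and new splice sites 3.87% and 2.12% in replicate 1. Counts by read class are therefore not comparable between the tables for those 3 genes.

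The libraries differed in cell type markers as well. Of the genes of myelinating oligodendrocytes, Mag (130.3 and 48.4 CPM), Mobp (197 and 73.9 CPM) and Cnp (1002 and 621 CPM) were called lower in replicate 2, and Mog had 4 and 2 reads. Ttr of choroid plexus (194 and 87.4 CPM) was called lower too. Of 4 astrocyte genes Aldoc (1709 and 1387 CPM) was called lower and Slc1a3, Gja1 and Aqp4 were not called, with a list median log2 ratio of 0.07 and summed levels of 3612 and 3384 CPM. The part of these in the carriers' values was not tested, and in tissue RNA fewer cells of a type and less RNA per cell cannot be told apart. Markers of hippocampal glutamatergic neurons (8 of 8 with reads, 2178 and 2105 CPM) were read in both. CPM was higher in replicate 2 for Prox1 (12 and 20 reads), Wfs1 (127 and 139) and C1ql2 (89 and 111). The same held for Neurod2 (70 and 73) and Zbtb20 (77 and 83). It was lower for Slc17a7 (1105 and 906), Bok (174 and 113) and Pou3f1 (135 and 121). Of the 8, 0 were called in either direction. Alb of liver had 0 reads, and Cidea of brown fat had 13 and 11. Of the erythroid genes, Hba-a1 had 121 and 133 reads, Hbb-bs had 76 and 56, and Alas2 had 14 and 8. Slc25a37 had 1 and 2.

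Genes that work beside the carriers made 6 lists of 40 genes, in which 0 of the 35 tested were called in either direction by the same Fisher's exact test, against 1.58% of all genes tested. An unadjusted p under 0.05 was found for 8 of the 35, and for 10.3% of all genes tested. The voltage-dependent anion channels, the pores of the outer membrane, stood at 314 (Vdac3), 231 (Vdac2) and 171 (Vdac1) mean CPM, with 3 of 3 tested. Of family members under other symbols 3 of 5 were tested. Mtch1 (994) and Mtch2 (187), of the outer membrane, were well above Ucp2 (21.3), and Ucp1, the uncoupling protein of brown fat, had 0 reads. Of other inner membrane carriers 5 of 7 were tested, led by Mpc1 of the pyruvate carrier (143), Sfxn3 (128) and the serine transporter Sfxn1 (125).

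Of genes for calcium uptake and ion exchange 7 of 8 were tested, with Letm1 at 169.8 and Smdt1, a subunit of the uniporter, at 126 mean CPM. All 13 genes of the import route of the carriers were tested, led by the receptor Tomm20 (241), the pore Tomm40 (196) and the receptor Tomm70a (161). The enzymes of the malate-aspartate shuttle, in which Slc25a11 and Slc25a12 are the carriers, were Mdh2 (706 mean CPM), Mdh1 (561), Got1 (309.6) and Got2 (82.3), with 4 of 4 tested. The median log2 ratio of the lists ran from -0.24 for these enzymes to 0.35 for the calcium list, and that of the 28 carriers was -0.15.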

How the data were processed

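The authors' deposited tables give raw read counts per transcript model of each library, per the file headers. The labels name the mm10 assembly, and the text deposited with the files names GENCODE M21. Other deposited descriptors are exon numbers and lengths of models and exon positions. The deposited models carry identifiers labelled talon_transcript, and no aligner is named in the sources used here. A gene's reads are those of all its models, and CPM is reads per 1000000 mouse reads, ERCC reads left out. A CAST/EiJ allele may align less well to mm10, which was not tested.

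Members and lists were chosen with earlier results of these data known. Values are given for the 20 highest carriers, any called or 2-fold apart, pair members and those with a variable exon or a leading isoform share under 80%. Values of a few genes are not reported here. Genes with 20 reads were compared by two-sided Fisher's exact test (scipy 1.17.1), adjusted over all genes at 0.05. Log2 ratios add 0.5 reads. Intervals are Wilson intervals at 95%, and with the floor of 3 reads they cover counting error only. Isoforms and exons needed 20 reads in each library. Introns are those of the leading transcript. Alternatives used edgeR 4.0.16 (TMM) and DESeq2 1.42.0 (size factors), other filters and read classes. Pseudogenes were found with blastn 2.17.0. The test was checked on simulated data.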

Additional observations from a re-analysis of the deposited data

Results flagged for a closer look

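Reads on the strand opposite to Slc25a46 were seen in both libraries and were used in no comparison. Models classed antisense that overlap its exons held 23 reads in replicate 1 and 34 in replicate 2, beside 75 and 78 reads of the gene itself. They are singled out because both counts exceed the 3 reads that a count of 0 allows. No other carrier had more than 3 such reads in both libraries. Of the reads opposite to Slc25a46, 22 of 23 in replicate 1 and all 34 in replicate 2 came from single-exon models, which hold no splice junction. Whether the strand of these reads was read correctly was not tested.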

How the results depend on the processing

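The single carrier call was kept with TMM library sizes, over the same exons and strand, with at least 10 reads and with no filter. It was lost (0 calls) with DESeq2 size factors, on annotated transcripts and on spliced reads, the last chosen after seeing the data. Slc25a5 turned to log2 ratios of -0.15 on annotated transcripts and -0.16 on spliced reads, and Slc25a44 to -0.11 and -0.12, where fewer reads are counted. Leading isoform calls went from 0 to 3 with incomplete matches included. Variable exons went from 10 to 4 at 10% to 90% inclusion, by construction. On annotated transcripts alone the summed level was 4419 CPM and the Slc25a4 share beside Slc25a5 80.8%. That share was 59.9% per kilobase and 80.7% on spliced reads. Leaving out 1 library in turn gave 5859 to 5916 CPM, pair shares for Slc25a4 of 68.1% to 71.5%, 6 to 7 pairs led by the first gene, Slc25a3 downstream shares of 99.8% to 100%, annotated shares of 72.5% to 77.7% and 9 of the 10 highest carriers. Per kilobase 7 of the 10 stayed. No paired analysis was possible because there is 1 group. Depth limits carriers under 20 reads, which the main test left out. With no filter the 1 call among 39 carriers was Slc25a5.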
